A study of Mus musculus with 3 samples.

Results

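Kupffer cells, the resident macrophages of the liver, made up 59 of 8674 retained cell barcodes in 3 single-cell libraries of isolated mouse hepatocytes (0.680%). A barcode was counted as a Kupffer cell if it had at least 200 genes, at most 50% mitochondrial counts, and at least 1 unique molecular identifier (UMI, the tag that marks 1 captured transcript) in 3 or more of 7 marker genes: Clec4f, Cd5l, Vsig4, C1qa, C1qb, C1qc and Marco. These 7 genes chose the cells, so their levels are given as a description and are left out of the counts of genes that differ.

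The cells came from WT (wild-type) mice. The ND library came from mice on normal diet, the HFD library from mice given 60% high fat food, and the HFD_HDCA library from mice given the same fat-rich food with 0.25% hyodeoxycholic acid, a bile acid, each for 12 weeks. Livers were dispersed by a collagenase digestion in 2 steps, and hepatocytes were the labelled cell type of all libraries. Each diet had 1 library made with a 10x Genomics kit that reads the 3′ end of transcripts. The number of mice behind a library, and their sex and age, are not given here. Because a diet is 1 library, differences between diets have no replicate check and carry no p-value, and the 95% intervals below cover counting error only.

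Kupffer cells sit inside the hepatic sinusoids, next to endothelial cells, and take up particles, bacteria and worn-out red blood cells from portal blood. They are seeded before birth, depend on the growth factor receptor CSF1R, and carry a set of liver-specific genes such as Clec4f, a lectin that binds galactose, and Timd4, a receptor for dying cells. They break down haem, return its iron to the blood through ferroportin, degrade cargo in lysosomes, and present antigen on MHC class II. A hepatocyte preparation is not made to recover them, so the cells described here are those that came along.

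ND, HFD and HFD_HDCA gave 5755, 6290 and 4873 barcodes, of which 2776, 2898 and 3000 were retained. Of all barcode sequences 32 occurred in more than 1 library, 7 of them among retained barcodes, and none on a Kupffer cell. Besides the 59 Kupffer cells, 128 retained barcodes had at least 3 of 7 sinusoidal endothelial markers and fewer than 3 Kupffer markers. They are called endothelial cells below, 84 in ND, 15 in HFD and 29 in HFD_HDCA, and the remaining 8487 barcodes are called other cells. Levels are UMIs per 1000000 nuclear-encoded UMIs (CPM). A UMI stands for 1 captured transcript end whatever the transcript's length, so levels were not divided by length.

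ND held 17 Kupffer cells, a share of 0.612% (exact binomial interval 0.357 to 0.979%). HFD held 17 as well, a share of 0.587% (0.342 to 0.938%). HFD_HDCA held 25, a share of 0.833% (0.540 to 1.23%). The 3 intervals overlapped. When every retained barcode was thinned to 500 UMIs and shallower ones were left out (558 in HFD, 2 Kupffer cells among them, and none in ND or HFD_HDCA), the counts were 16 of 2776, 13 of 2340 and 23 of 3000, or 0.576%, 0.556% and 0.767%. A share of barcodes also depends on how many Kupffer cells the digestion released and how many barcodes the authors kept, so it is not a density in the liver.

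Few barcodes lay near the boundary of the rule. Of the retained barcodes, 8579 had none of the 7 markers, 32 had 1 and 4 had 2, against 6 with 3 markers, 8 with 4, 13 with 5, 27 with 6 and 5 with all 7. The 4 just outside were unlike each other. An HFD_HDCA barcode had 3 UMIs each of C1qb and C1qc and 43 UMIs of general macrophage genes, while an ND barcode with 1 UMI each of C1qa and C1qc carried all 7 endothelial markers. The 6 just inside had between 3 and 33 marker UMIs, and the one with the fewest was an HFD barcode with 3 marker UMIs in 570.

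**Figure D1:**
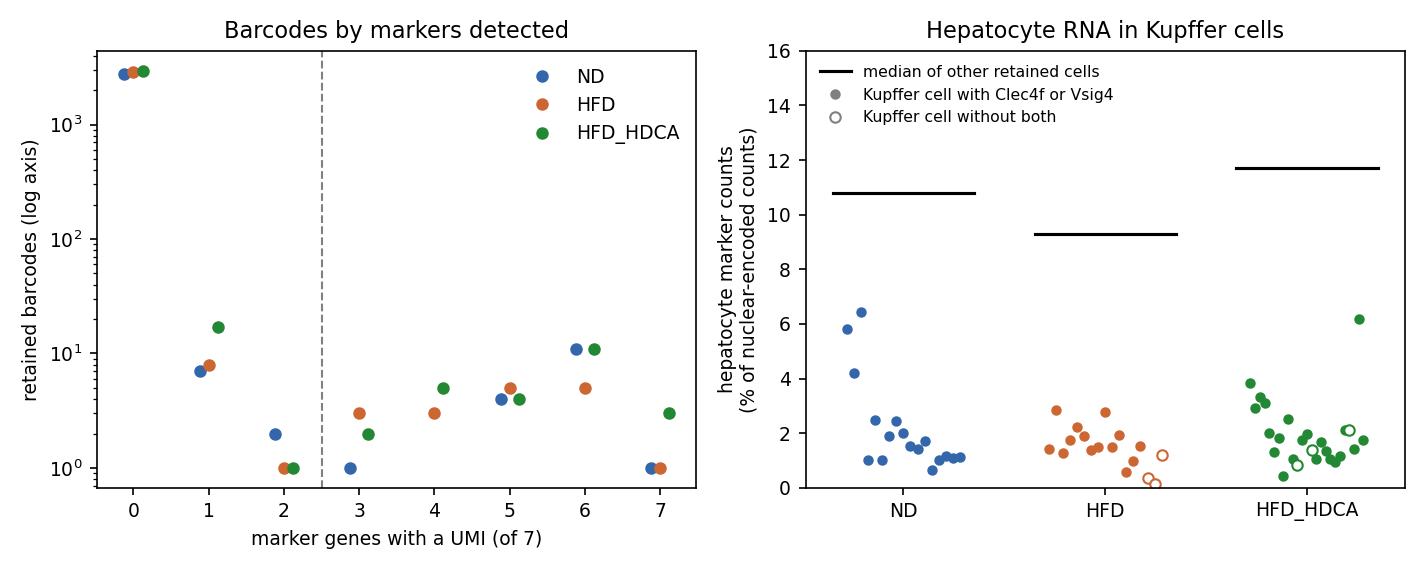
Left, retained barcodes of each library (log axis) by the number of the 7 marker genes with at least 1 UMI; libraries with 0 barcodes at a position are not drawn, and the dashed line marks the rule at 3 markers. Right, hepatocyte marker counts as a percent of nuclear-encoded counts in every Kupffer cell, with filled points for cells with a UMI of Clec4f or Vsig4, open points for the 6 without, and black lines at the median of the other cells; every Kupffer cell lay below the line of its library.

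Kupffer cells held a median of 1095 UMIs in ND (range 546 to 2217), 903 in HFD (447 to 3196) and 1170 in HFD_HDCA (505 to 4280). The other cells had medians of 936, 869 and 1123 UMIs, so depths were alike within each library. Kupffer cells nevertheless showed more genes, with medians of 735, 625 and 734 against 503, 469 and 614. Their mitochondrial share was lower, with medians of 4.35%, 5.56% and 4.27% against 11.7%, 13% and 7.49% in the other cells.

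Macrophage genes outside the rule were found in every Kupffer cell. General macrophage genes such as Lyz2 (lysozyme), Tyrobp (a signalling adaptor of myeloid receptors) and Csf1r had at least 2 UMIs in every ND cell, 3 in every HFD cell and 5 in every HFD_HDCA cell when 20 such genes were summed. The median cell had 18, 16 and 17 of these UMIs. Markers of most other cell types were near 0. Sinusoidal endothelial markers summed to 22 UMIs over the 59 cells, with Clec4g and Kdr at 0, and their level ranged from 110 CPM in HFD to 644 CPM in ND against 12333 CPM in endothelial cells. The endothelial cells were chosen by these same markers. Stellate and fibroblast markers gave 3 UMIs, with Lrat, Col1a1, Col3a1, Reln and Colec11 at 0 (5 of 7). All 5 cholangiocyte markers were at 0. T and NK cell markers gave 2 UMIs, with 8 of 10 at 0. Dendritic cell markers gave 2, with 5 of 7 at 0. Neutrophil markers gave 1, with 6 of 7 at 0. Monocyte markers gave 16 UMIs, of which Plac8 had 13, while Ly6c2, Chil3, F13a1 and Vcan were at 0. Summed, they were at 53.7, 385 and 278 CPM in ND, HFD and HFD_HDCA, and at 244 CPM in the pool against 6.83 CPM in the other cells. Without 6 cells that are set apart below, the sums were 53.7, 624 and 319 CPM, with counts unchanged at 1, 7 and 8 UMIs. Plac8 was past the size rule described below, but was measured through its Kupffer UMIs alone, so it had to differ. B and plasma cell markers gave 14 UMIs and ranged from 53.7 CPM in ND to 604 CPM in HFD, with Cd79a and Jchain at 0. Of these UMIs 10 lay in 1 cell, and all 11 of HFD, like both T and NK cell UMIs, lay in 3 HFD cells that had no UMI of Clec4f or Vsig4 and are described below. Barcodes of mixed type could be present, since doublets were not removed: 2 Kupffer cells, 1 in ND and 1 in HFD_HDCA, had at least 3 endothelial markers.

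Hepatocyte RNA was present in all 59 cells. Alb, the gene of serum albumin, had 155, 78 and 209 UMIs in the Kupffer cells of ND, HFD and HFD_HDCA. The sum of 10 hepatocyte markers was 16804 CPM, or 14.1% of the 118939 CPM in the other cells, against 27229 CPM in endothelial cells. In single cells of ND, HFD and HFD_HDCA its share of nuclear-encoded counts had medians of 1.54%, 1.51% and 1.74%, with a highest value of 6.43%, against medians of 10.8%, 9.30% and 11.7% in the other cells. A gene that hepatocytes express abundantly therefore has UMIs in Kupffer cells that cannot be told apart from free or attached hepatocyte RNA.

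Among the 7 rule genes, Cd5l, which encodes a secreted scavenger protein of macrophages, had the most UMIs, with 100 in ND, 158 in HFD and 158 in HFD_HDCA, and was seen in 57 of 59 cells. Clec4f had 59, 37 and 67 UMIs in 48 cells. Vsig4, a receptor for complement-coated particles, had 42, 27 and 62 UMIs in 45 cells. The 3 chains of complement C1q, the protein that starts the classical complement pathway, were each widespread. C1qa was seen in 54 cells, with 79, 37 and 89 UMIs. C1qc was seen in 50, with 79, 40 and 84 UMIs. C1qb was seen in 44, with 22, 31 and 42 UMIs. Marco, a scavenger receptor for bacteria, was the sparsest, with 7, 20 and 11 UMIs in 14 cells. In the other cells, at nearly the same depth, a UMI of these genes was found in 0.0353% (Clec4f and Vsig4) to 0.118% (C1qc) of cells. These cells are defined by fewer than 3 of the markers, and they include the HFD_HDCA barcode with 43 general macrophage UMIs.

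In this set 6 cells stood apart, and were singled out after their values were seen. They had no UMI of Clec4f or of Vsig4, and 3 came from HFD, 3 from HFD_HDCA and none from ND. The 3 of HFD were deep, with 2056, 2123 and 3196 UMIs, and held 38.3% of all nuclear-encoded UMIs of the HFD Kupffer cells. They had 25, 20 and 22 UMIs of Cd5l and 9, 15 and 9 of Adgre1, which encodes the macrophage antigen F4/80, but none of C1qa, Mrc1, Cd163 or Folr2. Other resident identity genes were present, with 4, 1 and 0 UMIs of Timd4 and 8, 8 and 5 of Slc40a1, the gene of ferroportin. They held all 11 UMIs of B and plasma cell markers and both UMIs of T and NK cell markers found in HFD, and the part of such cells in the results of HFD was not tested. Compared with the 14 other HFD members they were high in Tmsb4x, which encodes an actin-binding peptide (48609 against 13540 CPM), Hmox1, the haem-degrading enzyme (6596 against 1514 CPM), and Itgal, an integrin chain of leukocytes (3728 against 1158 CPM). The 3 of HFD_HDCA were shallower, with 906, 1195 and 1728 UMIs and 12.9% of that library's Kupffer UMIs, and 1 of them had 24 UMIs of Cd74, the invariant chain of MHC class II. Without these 6 cells, ND, HFD and HFD_HDCA held 17, 14 and 22 Kupffer cells. No cell type name is given to the 6. Counts of called genes and gene lists compared between diets below are given with them and without them.

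The promoters of the C1q genes and of Ccl6, a chemokine gene with the pattern of a Kupffer gene in these libraries (described below), are shown because they carry the core letters bound by ETS factors such as PU.1, the factor that directs macrophage development. Each run is the 250 bases before the RefSeq transcription start on GRCm38.p6, read 5′ to 3′ on the gene's strand, with the motif AGGAAGT or its reverse complement ACTTCCT in capitals. All 3 genes lie on the minus strand, C1qb at chr4:136886201-136886450, C1qc at chr4:136892915-136893164 and Ccl6 at chr11:83593088-83593337.
C1qb: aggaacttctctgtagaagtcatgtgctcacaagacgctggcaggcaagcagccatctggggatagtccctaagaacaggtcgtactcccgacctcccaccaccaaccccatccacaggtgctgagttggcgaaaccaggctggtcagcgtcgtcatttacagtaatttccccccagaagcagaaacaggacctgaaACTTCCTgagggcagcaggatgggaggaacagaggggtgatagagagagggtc
C1qc: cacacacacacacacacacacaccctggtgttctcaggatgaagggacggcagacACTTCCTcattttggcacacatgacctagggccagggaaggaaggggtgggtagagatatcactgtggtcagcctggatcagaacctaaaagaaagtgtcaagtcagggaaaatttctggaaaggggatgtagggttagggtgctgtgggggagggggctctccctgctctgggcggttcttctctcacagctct
Ccl6: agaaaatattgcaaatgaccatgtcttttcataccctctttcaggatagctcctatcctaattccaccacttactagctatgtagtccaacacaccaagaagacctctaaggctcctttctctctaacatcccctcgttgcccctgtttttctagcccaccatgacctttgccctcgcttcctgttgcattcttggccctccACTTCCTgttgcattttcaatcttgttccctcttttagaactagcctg
The motif began 53 bases before the start in C1qb, 195 in C1qc and 48 in Ccl6. The promoter table used here, from RefSeq, matched 6 of the 7 rule genes and 14 of the 25 genes ranked below. Searched on both strands from 250 bases before to 50 after the start, AGGAAGT was present in 2 of these 6 (C1qb and C1qc) and 6 of these 14 (Mrc1, Fcna, Ctss, Lyz2, Ccl6 and Cd300ld), against 9.57% of 27025 promoters of the same length. Its longer form GAGGAAGT, which contains it, was present in C1qc, Ctss and Cd300ld, against 3.28% of all promoters. TCACGTG, the box bound by the lysosomal regulators TFEB and TFE3, was in none of the 20 promoters, against 3.84% of all. TGCTGAC, a site for MAF factors, was in Fcna, against 4.58% of all. These are matches of letters in a window and say nothing of binding.

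In the pooled Kupffer cells, 503 of 7926 measured genes passed a rule of size against the other cells (6.35%): at least 10 UMIs in Kupffer cells, at least 4-fold higher in the pool and at least 2-fold higher in each library. A gene was measured if it had at least 10 UMIs in Kupffer cells or 100 in the other cells, and 234 were measured through their Kupffer UMIs alone, so they had to differ. Over all measured genes the median log2 ratio was 0.45. The cells were chosen by genes of the same transcriptome, so this comparison describes the cells and is no test. Of the 503 genes, 242 were also at least 4-fold higher than in endothelial cells (48.1%), 258 lay within 4-fold of them, and 3 were lower: Cd55, Klf7 and Tcf4. Most endothelial cells came from ND, unlike the Kupffer cells, and no ratio per library was required here. Library is therefore mixed into every comparison with endothelial cells.

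The gene with the highest ratio, ranked after adding 20 CPM to both levels, was Tmsb4x. It had 324, 491 and 461 UMIs in ND, HFD and HFD_HDCA and was seen in 59 of 59 cells, at 19440 CPM in Kupffer cells against 43.9 CPM in the other cells. It was also present in endothelial cells, at 3151 CPM. Wfdc17, a small secreted protease inhibitor of macrophages, followed with 60, 62 and 111 UMIs. Its level was 3550 CPM (3109 to 4036) against 1.47 CPM in the other cells and 23.9 CPM in endothelial cells, a log2 ratio over the other cells of 11.21 (10.58 to 11.98). Lgmn, the lysosomal protease legumain, had 102, 66 and 129 UMIs in 56 cells. The rest of the first 25, in order, were Sdc3, Lyz2, Ctss, Marcks, Cd74, Adgre1, Hmox1, Mrc1, Fcna, H2-Aa, Mpeg1, Itgal, Laptm5, Tyrobp, Lpl, Cd300ld, Cybb, H2-Ab1, Csf1r, Ccl6, Sirpa and Cdh5. Each was seen in at least 25 of the 59 cells. Adgre1, Cd300ld, Cybb, Csf1r and Ccl6 had 0 UMIs in endothelial cells, where 0 allows up to 23.9 CPM.

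**Figure D2:**
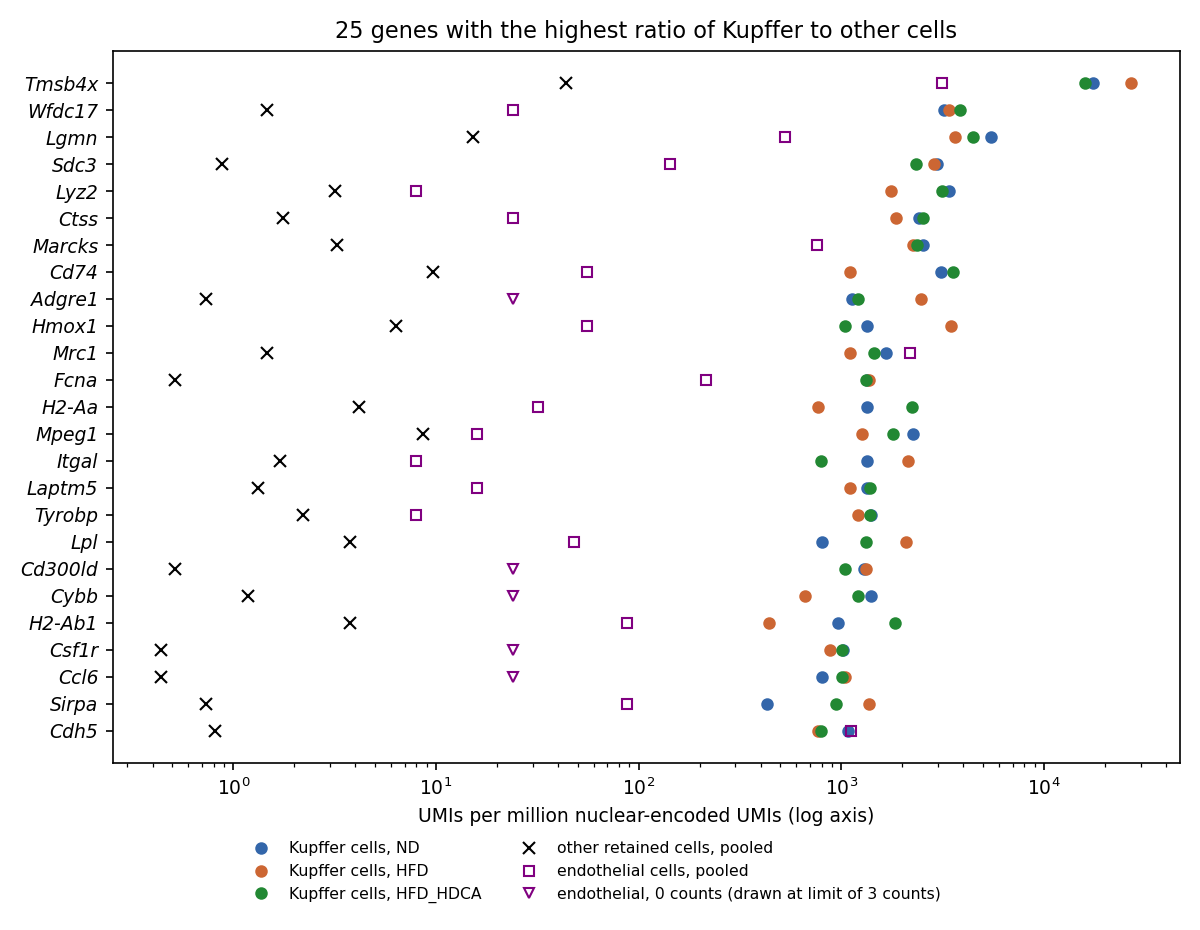
Levels of the 25 ranked genes in Kupffer cells of each library (coloured points), in the other cells (crosses) and in endothelial cells (squares, or triangles at the limit of 3 counts where none was found), in CPM on a log axis. All Kupffer points lie to the right of their crosses, and Mrc1 and Cdh5 are the genes whose endothelial level lies at or above the pooled Kupffer level.

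Of 20 resident identity genes outside the rule, 17 passed the size rule (12 of them measured through Kupffer UMIs alone), with a summed level of 17931 CPM against 514 CPM in the other cells and 3334 CPM in endothelial cells. Their median log2 ratio was 9.66. Slc40a1, which encodes ferroportin, the exporter of cellular iron, had 90, 82 and 92 UMIs in ND, HFD and HFD_HDCA and was seen in 52 cells. Its log2 ratio was 5.06 (4.87 to 5.25) over the other cells and 3.16 (2.75 to 3.62) over endothelial cells. Sdc3, a syndecan of the cell surface, had 55, 52 and 67 UMIs in 48 cells. Fcna, which encodes a ficolin that recognises bacterial sugars, had 25, 25 and 38 UMIs in 38 cells.

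The canonical resident genes Timd4, Cd163 and Folr2 were sparser. Timd4 had 12, 8 and 9 UMIs in 21 cells, at 442 CPM against 3 UMIs in all other cells, a log2 ratio of 10.77 (9.28 to 13.33). Of its 8 UMIs in HFD, 4 lay in 1 and 1 in another of the 3 HFD cells without Clec4f and Vsig4. Cd163, the receptor for haemoglobin bound to haptoglobin, had 17, 16 and 15 UMIs in 25 cells against 1 UMI in all other cells, a log2 ratio of 12.71 (10.73 to 18.61). Folr2, a folate receptor, had 12, 13 and 10 UMIs in 20 cells and none in any other cell, which makes it at least 2420-fold higher with 3 counts set as the limit. At these depths a Kupffer cell without a UMI of such a gene cannot be called negative for it. Hpgd, an enzyme that inactivates prostaglandins, had 33, 30 and 33 UMIs, and also 151 CPM in the other cells. C6, a late complement component, passed the rule at 625 CPM over 113 CPM. Slc16a9, Pla2g15 and Xlr had 7, 6 and 1 UMIs and did not reach the minimum of 10.

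General macrophage genes gave 18 of 20 past the size rule (16 measured through Kupffer UMIs alone), at 16880 CPM against 52.0 CPM in the other cells and 326 CPM in endothelial cells. Lyz2 had 63, 32 and 91 UMIs in 46 cells. Ctss, the cathepsin that trims the invariant chain, had 45, 34 and 73 UMIs in 45 cells. Mpeg1, which encodes the pore-forming protein perforin-2, had 42, 23 and 52 UMIs in 46 cells. Csf1r had 19, 16 and 29 UMIs in 33 cells, and Cybb, the catalytic chain of the phagocyte oxidase, had 26, 12 and 35 UMIs in 38 cells. These genes were present in every library, and the highest number of their UMIs in 1 cell was 69.

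**Figure D3:**
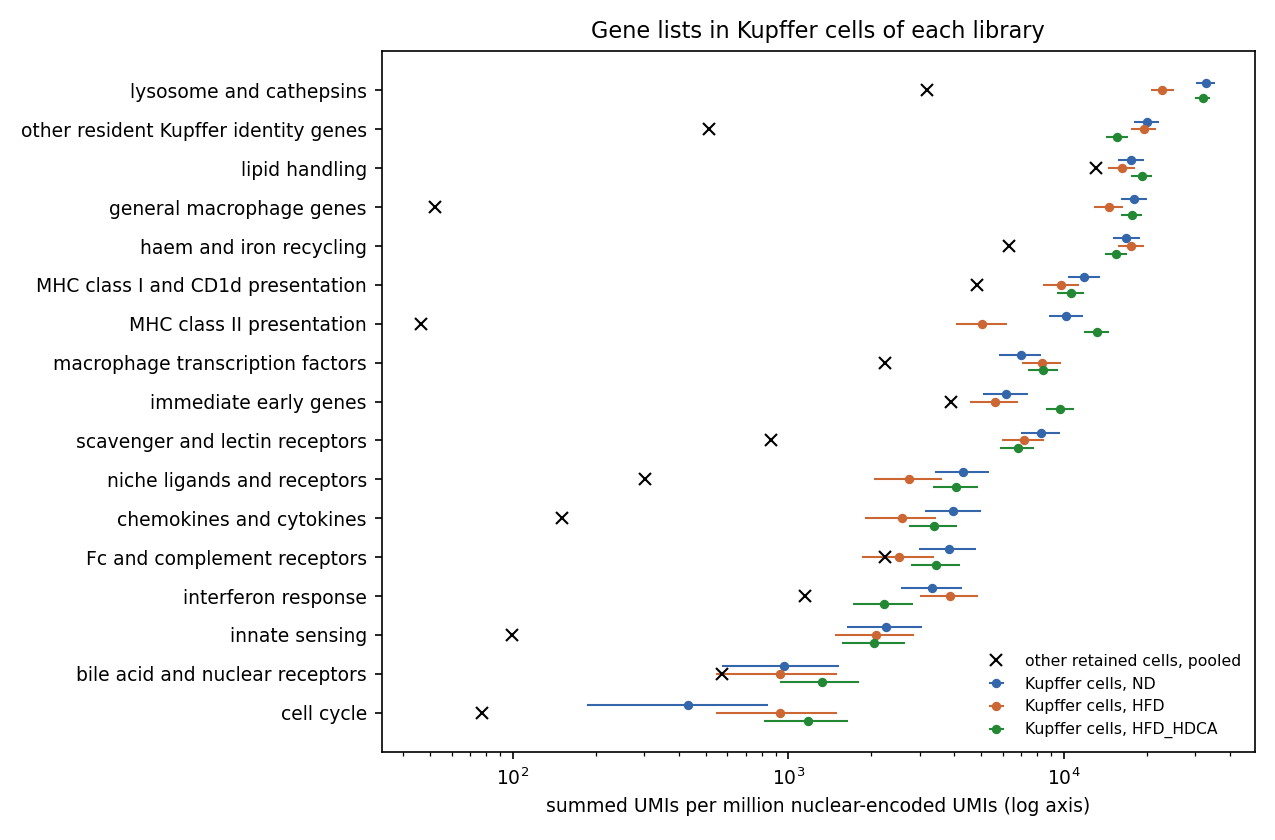
Summed levels of 17 gene lists in the Kupffer cells of each library with exact Poisson intervals (coloured points and bars), and in the pooled other cells (crosses), in CPM on a log axis. General macrophage, MHC class II and resident identity genes stand farthest from their crosses, while bile acid and nuclear receptors lie close to theirs.

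Of 19 macrophage transcription factors, 7 passed the size rule. Of the 14 measured, 4 were measured through Kupffer UMIs alone. Maf, a factor that restrains proliferation of resident macrophages, had 28, 31 and 23 UMIs in 37 cells, at 1249 CPM against 37.7 CPM in the other cells. Endothelial cells had more of it, 3390 CPM. Zeb2 had 10, 10 and 25 UMIs in 30 cells. Nr1h3, which encodes the oxysterol receptor LXR alpha, had 10, 11 and 21 UMIs in 26 cells, with a log2 ratio of 3.42 (2.92 to 3.85) over the other cells and 5.02 (3.39 to 8.42) over endothelial cells. Id3 had 11, 5 and 26 UMIs in 26 cells, at 640 CPM against 859 CPM in endothelial cells. Spi1, the gene of PU.1, had 7, 5 and 9 UMIs in 16 cells, against 5 UMIs in all other cells. Irf8 had 1, 7 and 3 UMIs in 10 cells. Spic, a factor of macrophages that handle haem, had 1, 10 and 1 UMIs in 7 cells, and 7 of the 10 in HFD lay in the 3 HFD cells without Clec4f and Vsig4. Cebpb was at 1630 CPM, but the other cells also held 760 CPM and it did not reach 4-fold.

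Scavenger and lectin receptors gave 12 of 19 past the rule (8 measured through Kupffer UMIs alone), summing to 7313 CPM against 867 CPM in the other cells and 5864 CPM in endothelial cells. Mrc1, the mannose receptor, had 31, 20 and 42 UMIs in 43 cells, at 1417 CPM, below the 2180 CPM of endothelial cells. Stab1, an endocytic receptor, had 5 UMIs in Kupffer cells, 76.2 CPM against 1098 CPM in endothelial cells. Msr1, scavenger receptor A, had 12, 4 and 16 UMIs in 21 cells. Mertk and Axl, receptors for dying cells, had 7, 7 and 8 UMIs and 5, 6 and 9 UMIs. Clec4n, the lectin dectin-2, had 3, 4 and 5 UMIs in 10 cells and none in any other cell, at least 830-fold higher with 3 counts as the limit. The hepatic lipoprotein receptor Scarb1 had 3 UMIs and was at 45.7 CPM against 46.4 CPM in the other cells.

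Among 13 Fc and complement receptors and regulators, 5 passed. Of the 9 measured, 5 were measured through Kupffer UMIs alone. Cfp, which encodes properdin, a stabiliser of the alternative complement pathway, had 19, 9 and 22 UMIs in 29 cells. The activating Fc receptors Fcgr4 and Fcgr3 had 5, 9 and 12 UMIs and 4, 9 and 9 UMIs, and Fcgr3 had none in any other cell, at least 1521-fold higher with 3 counts as the limit. The inhibitory receptor Fcgr2b had 5 UMIs in 2 cells, 76.2 CPM against 2928 CPM in endothelial cells. C3ar1, the receptor for the complement fragment C3a, had 5, 1 and 12 UMIs in 17 cells. Itgam had 1 UMI and Itgax none.

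Lysosomal genes took the largest share of the Kupffer transcriptome among the lists, 29617 CPM against 3191 CPM in the other cells and 6453 CPM in endothelial cells. Of 24 genes, 15 passed the size rule (4 measured through Kupffer UMIs alone), with a median log2 ratio of 3.93. Ctsb, the gene of cathepsin B, had 127, 105 and 271 UMIs in 58 cells. It was at 7663 CPM against 342 CPM in the other cells and 772 CPM in endothelial cells. Lgmn was at 4525 CPM against 15.2 CPM. Psap (saposins, activators of lipid breakdown) had 50, 38 and 90 UMIs, and Grn (progranulin) had 56, 36 and 59. Lamp1, Lamp2, Ctsl and Lipa, which the other cells also carried at 425, 792, 473 and 208 CPM, did not reach 4-fold.

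Haem and iron genes summed to 16469 CPM against 6329 CPM in the other cells, and 7 of 16 passed the size rule. All 16 were measured, 4 of them through Kupffer UMIs alone. Slc40a1, the iron exporter, was at 4022 CPM against 121 CPM. Hmox1 had 25, 63 and 30 UMIs in ND, HFD and HFD_HDCA, in 37 cells, at 1798 CPM against 6.32 CPM in the other cells. Of the 63 UMIs in HFD, 34 lay in 1 cell and 46 in the 3 cells without Clec4f and Vsig4. The ferritin chains Fth1 and Ftl1 were at 4570 and 2788 CPM, less than 4-fold above the 2676 and 1886 CPM of the other cells. Slc11a1, a metal transporter of the phagosome, had 11, 4 and 8 UMIs in 16 cells against 2 UMIs in all other cells. Cp, the hepatocyte-made ferroxidase ceruloplasmin, was lower in Kupffer cells, at 274 CPM against 1072 CPM.

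Genes of the MHC class II presentation list, which includes Ctss and Ifi30, had UMIs in nearly every Kupffer cell. Ctss alone was seen in 45 cells, more than Cd74 or any class II chain given below. Of 14 genes, 8 passed the size rule (6 measured through Kupffer UMIs alone), at 10070 CPM against 46.4 CPM in the other cells and 271 CPM in endothelial cells, and 57 of 59 cells had at least 1 of their UMIs. Cd74 had 58, 20 and 103 UMIs in ND, HFD and HFD_HDCA, in 38 cells. H2-Aa had 25, 14 and 64 in 32 cells, H2-Ab1 18, 8 and 53 in 25 cells, and H2-Eb1 20, 2 and 42 in 21 cells, all chains of the class II molecule itself. The lowest count was in HFD for each of these 4 genes. Of the costimulatory genes, Cd86 had 10 UMIs, Cd80 7 and Cd40 none. By contrast, of 14 genes of MHC class I and CD1d presentation only 2, H2-D1 and Tapbp, passed. B2m, the shared light chain, was at 5942 CPM against 2582 CPM in the other cells, and Cd1d1, which presents lipids, was at 152 CPM against 240 CPM.

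Chemokines and cytokines gave 6 of 24 past the rule, and all 6 were measured through Kupffer UMIs alone. Ccl6 had 15, 19 and 29 UMIs in 35 cells, against 6 UMIs in all other cells. Ccl24, an attractant of eosinophils, had 10, 8 and 7 UMIs in 20 cells and none in any other cell, at least 1728-fold higher with 3 counts as the limit. Il1b, the inflammatory cytokine, had 23, 3 and 18 UMIs in 18 cells. Cxcl16, Tgfb1 and Ccl4 had 15, 12 and 10 UMIs. Tnf had 2 UMIs, Il6 3 and Il10 4, while Cxcl1, Ccl3, Cxcl10, Il12b, Osm and Csf1 had none. In 59 cells a count of 0 allows up to 45.7 CPM.

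Sensing and interferon genes were sparse. Of 19 innate sensing genes 3 passed: Ly86, a partner of a Toll-like receptor homologue, with 19, 6 and 19 UMIs, Tlr2 with 6, 4 and 6, and Nfkbia with 3, 10 and 5. In this list 7 were measured, 3 of them through Kupffer UMIs alone. Cd14, the lipopolysaccharide co-receptor, had 0, 7 and 9 UMIs and failed the rule in ND. Tlr4 had 1 UMI and Tlr7, Tlr8 and Tlr9 had none. Of 19 interferon response genes, Ifi27l2a and Irf1 passed, and 1 of the 11 measured was measured through Kupffer UMIs alone. Ifi27l2a had 10, 38 and 7 UMIs in 17 cells. The typical responders Isg15 and Rsad2 had 4 and 2 UMIs, and Ifit1, Ifit2 and Oas1a none.

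In lipid handling, 11 of 25 genes passed (6 measured through Kupffer UMIs alone). Lpl, which frees fatty acids from lipoproteins, had 15, 38 and 38 UMIs in 37 cells, at 1386 CPM against 3.75 CPM in the other cells. Fabp7, a fatty acid binding protein, had 8, 13 and 23 UMIs in 24 cells against 2 UMIs in all other cells. Pltp and Abcg1, targets of LXR that move phospholipid and cholesterol, had 29 and 28 UMIs, and Soat1, which esterifies cholesterol, had 23. Cd36, a fatty acid and lipoprotein receptor, had 5, 18 and 10 UMIs in 19 cells. Apoe was abundant, at 9126 CPM, but below the 11813 CPM of the other cells.

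Receptors that sense bile acids bear on a diet with a bile acid added. Of 13 bile acid and nuclear receptors only Nr1h3 passed. Gpbar1, the membrane bile acid receptor TGR5, had 0 UMIs in Kupffer cells, in endothelial cells and in all other cells. Nr1h4, which encodes the nuclear bile acid receptor FXR, had 0, 1 and 1 UMIs, 30.5 CPM against 83.2 CPM in the other cells. S1pr2, a receptor for conjugated bile acids, had 2 UMIs and Vdr none. With a limit of 45.7 CPM at 0 counts, levels of these receptors below that were not detectable at this depth.

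Genes of the sinusoidal niche gave 4 of 19: Csf1r, Cdh5, Id3 and Csf2ra. Of the 12 measured, 3 were measured through Kupffer UMIs alone. Cdh5, the adhesion molecule VE-cadherin known from endothelium, had 20, 14 and 23 UMIs in 30 cells. Its level was 868 CPM (658 to 1125) in Kupffer cells, 1114 CPM in endothelial cells and 0.808 CPM in the other cells. Clec1b, a lectin for podoplanin, was likewise in both, at 411 and 135 CPM. Kdr and Clec4g, at 2729 and 1894 CPM in endothelial cells, had no UMI in any Kupffer cell. Both are among the 7 markers that chose the endothelial cells, so their level there was set by that choice. The ligands Csf1 and Il34 had none in Kupffer cells.

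Immediate early genes, which respond to tissue digestion among other signals, summed to 6175, 5604 and 9716 CPM in ND, HFD and HFD_HDCA, against 3140, 3876 and 4477 CPM in the other cells of the same libraries. The sums were 6175, 6325 and 10315 CPM when the 6 cells were left out. Of 20, Klf2 and Klf6 passed the size rule, and 1 of the 16 measured was measured through Kupffer UMIs alone. Klf2 had 8, 13 and 35 UMIs in 28 cells. Of 12 cell cycle genes only Pcna passed, with 19 UMIs in 13 cells, and 1 of the 3 measured was measured through Kupffer UMIs alone. Top2a had 10 UMIs and Mki67 6, and 9 and 5 of these lay in HFD_HDCA. Of the 34 UMIs of the cell cycle list in HFD_HDCA, 28 lay in 1 cell. Markers of lipid-associated macrophages, a state described in fatty liver, gave 55 UMIs, of which 22 lay in 1 cell. Lgals3 had 2, 9 and 12 UMIs in 16 cells, Gpnmb 0, 0 and 5 in 2 cells, and Trem2 1 UMI in all, while Spp1 and Itgax had none. Summed, they were at 215, 549 and 1423 CPM in ND, HFD and HFD_HDCA. Leaving out the 6 cells, among them the cell with 22 UMIs, gave 215, 891 (427 to 1638) and 637 CPM (364 to 1035). The HFD_HDCA count fell from 41 to 16 UMIs. The HFD count stayed at 10 UMIs, so its level rose by construction. The intervals of HFD and HFD_HDCA overlapped, so no order is read from them.

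The diets were compared within Kupffer cells over genes that passed the size rule and had at least 20 UMIs over both libraries, leaving out the rule genes. A gene was called if its ratio was at least 2-fold and its exact interval lay on 1 side of 0. In HFD against ND, 11 of 118 genes were higher (9.32%) and 12 were lower (10.2%), against 6.09% and 7.89% of all 279 genes with that many UMIs. Their median log2 ratio was 0.13. Without the 6 cells that lacked Clec4f and Vsig4, 3 of 89 were higher (3.37%) and 4 were lower (4.49%). Higher then were Vcam1, Lpl and Fabp7, of which Vcam1 and Lpl had been called before. The 3 HFD cells left out held 0 of the 13 Fabp7 UMIs of HFD, so leaving them out raised its level by construction. All 4 lower genes, Rgs1, Il1b, Ctsa and H2-Eb1, had been called before.

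Genes lower in HFD included 2 of 5 tested genes of the MHC class II list and 2 of 11 of the lysosomal list. H2-Aa, at -0.78 (-1.86 to 0.20), and H2-Ab1, at -1.09 (-2.55 to 0.14), were not called. H2-Eb1 had 2 UMIs in the 17 HFD cells against 20 in the 17 ND cells, 110 against 1074 CPM, a log2 ratio of -3.00 (-6.43 to -1.25), and -2.31 (-5.73 to -0.55) without the 6 cells. In ND, 9 of its 20 UMIs lay in 1 cell, and 10 of the 18 of H2-Ab1 also lay in 1 cell. H2-Eb1 was not called without the deepest cell of each library. Without the cell with most UMIs of each gene, H2-Eb1 fell under the minimum number of UMIs, and H2-Aa was called lower. Cd74 had 20 against 58 UMIs, a log2 ratio of -1.48 (-2.31 to -0.75), and -0.93 (-1.81 to -0.17) without the 6 cells, which is under 2-fold. With each cell weighted equally Cd74 was not called, while H2-Eb1 was. Il1b had 3 against 23 UMIs, a log2 ratio of -2.71 (-5.28 to -1.18), and -2.02 without the 6 cells. Rgs1, a brake on chemokine receptor signalling, had 5 against 24 UMIs, a log2 ratio of -2.12, and -2.56 without them. The lysosomal gene Ctsa had 6 against 20 UMIs (-1.62, and -1.46 without them), and Ctsc had 18 against 44 (-1.23, and -0.70). Marcksl1, Dmpk, Ly86, Lrp1, Sat1 and Cybb were called at -1.84, -2.08, -1.55, -1.36, -1.07 and -1.05. None of these genes was called without the 6 cells. Marcksl1 and Dmpk were then still past 2-fold, at -1.51 (-4.11 to 0.12) and -1.39 (-3.53 to 0.07), while Ly86, Sat1 and Cybb were at -0.85, -0.74 and -0.47. Marcksl1 also fell under the minimum number of UMIs. Lrp1 was at -1.59 but, at 445 CPM in HFD against 228 CPM in the other HFD cells, no longer passed the size rule.

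Genes higher in HFD were fewer once the 6 cells were left out. Vcam1, an adhesion molecule for lymphocytes, had 21 against 7 UMIs, a log2 ratio of 1.55 (0.33 to 3.10), and 1.95 (0.67 to 3.52) without them. Lpl had 38 against 15 UMIs, a log2 ratio of 1.35 (0.48 to 2.34), and 1.06 (0.02 to 2.15) without them. Cd36 had 18 against 5 UMIs, a log2 ratio of 1.78 (0.40 to 3.67), and 1.79 (0.23 to 3.74) without them, when it fell under the minimum number of UMIs. Ifi27l2a, with 38 against 10 UMIs, went from 1.91 to 0.43. Sirpa, a receptor for the signal that protects cells from phagocytosis, went from 1.62 to 0.34. Cd2ap went from 1.56 to 0.10, Hmox1 from 1.35 to 0.19, and Sh3glb1 from 1.62 to 1.52. Lst1 went from 1.34 to -0.37 (-3.08 to 1.64) and Adgre1 from 1.11 to -0.05 (-1.23 to 1.01). Both of these intervals lay on both sides of 0, so no direction is read from them. Ifi27l2a, Sirpa, Cd2ap, Sh3glb1 and Lst1, like Cd36, then fell under the minimum number of UMIs and could not be called. Fcer1g, the signalling chain of Fc receptors, went from 1.13 to 0.73.

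**Figure D4:**
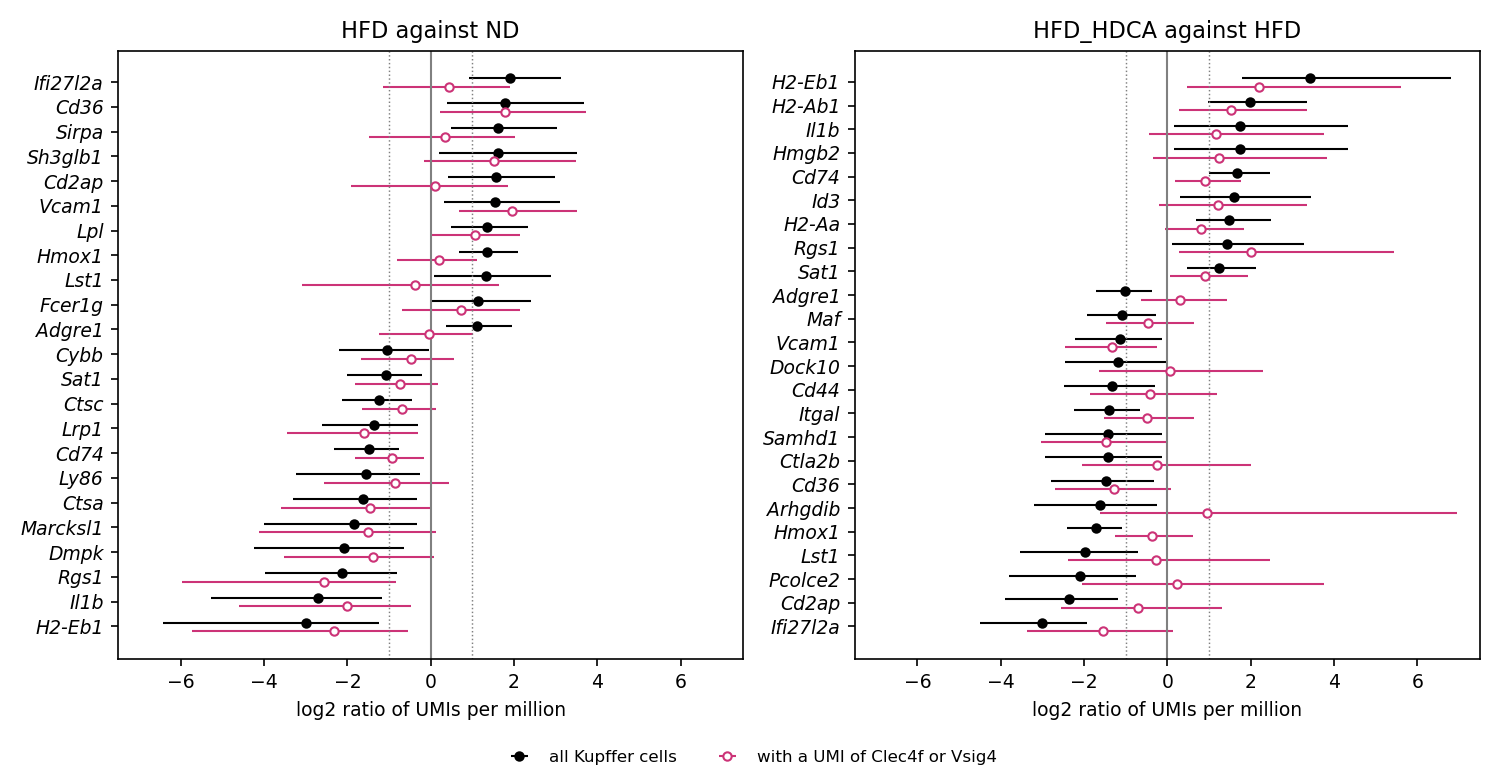
Log2 ratios of CPM with exact intervals for the called genes of each comparison (left, HFD against ND; right, HFD_HDCA against HFD), over all Kupffer cells (black) and over those with a UMI of Clec4f or Vsig4 (open points); dotted lines mark 2-fold. The ratios of Adgre1 and Lst1 on the left and of Adgre1, Dock10, Arhgdib and Pcolce2 on the right change sign between the settings. The intervals of their open points lie on both sides of 0. Those of H2-Eb1, Rgs1 and Vcam1 are ratios that stay past 2-fold.

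HFD_HDCA was compared with HFD over 152 genes, of which 9 were higher (5.92%) and 15 were lower (9.87%), against 4.96% and 6.27% of all 383 genes. The median log2 ratio was -0.04. Without the 6 cells, 3 of 113 were higher (2.65%) and 4 were lower (3.54%). The 3 higher genes, Rgs1, H2-Ab1 and H2-Eb1, had been called before, and of the 4 lower ones, Vcam1, Cd163, Folr2 and Hpgd, only Vcam1 had. This comparison shares the HFD library with the one above, so a low or high count in HFD alone enters both.

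The higher genes were led by MHC class II. H2-Eb1 had 42 UMIs in the 25 HFD_HDCA cells against 2 in the 17 HFD cells, 1457 against 110 CPM, a log2 ratio of 3.42 (1.79 to 6.82), and 2.19 (0.48 to 5.61) without the 6 cells. H2-Ab1 had 53 against 8 UMIs, a log2 ratio of 1.99 (0.98 to 3.35), and 1.53 (0.29 to 3.36) without them. H2-Aa had 64 against 14 UMIs, a log2 ratio of 1.49 (0.68 to 2.48), and 0.80 (-0.06 to 1.84) without them. Cd74 had 103 against 20 UMIs, a log2 ratio of 1.67 (1.0 to 2.47), and 0.91 (0.18 to 1.76) without them. These 4 were called among 6 tested genes of the class II list, and H2-Ab1 and H2-Eb1 remained called without the 6 cells. With each cell weighted equally, H2-Aa was at 0.49 and Cd74 at 0.92, and neither was called. Of the 379 UMIs of the class II list in HFD_HDCA, 88 lay in 1 cell and 79 in another, the latter among the 6. Il1b, Id3, Rgs1 and Sat1 were called at 1.74, 1.61, 1.43 and 1.24, and at 1.16, 1.22, 2.01 and 0.90 without the 6 cells. Hmgb2, a chromatin protein of dividing cells, had 18 UMIs in 2 cells of HFD_HDCA against 3 UMIs in HFD (1.74), and its ratio was -0.66 when the cell with most of its UMIs in each library was left out.

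Among the lower genes, Ifi27l2a had 7 UMIs against 38 in HFD, a log2 ratio of -3.02 (-4.51 to -1.92), and -1.55 (-3.38 to 0.14) without the 6 cells. Vcam1 had 15 against 21 UMIs, a log2 ratio of -1.14 (-2.21 to -0.12), and -1.34 (-2.45 to -0.25) without them. Hmox1 had 30 against 63 UMIs (-1.72), and -0.36 without them. Cd36 had 10 against 18 UMIs (-1.48), and -1.29 without them. Cd2ap, Lst1, Itgal, Cd44, Ctla2b, Maf and Samhd1 were called at -2.37, -1.97, -1.41, -1.33, -1.43, -1.09 and -1.43. Without the 6 cells they were at -0.71, -0.27, -0.49, -0.42, -0.24, -0.46 and -1.47, and none was called. Ifi27l2a, Cd2ap, Lst1, Cd44, Ctla2b and Samhd1 then had fewer than the minimum of 20 UMIs, so they could not be called whatever their ratio. Samhd1 stayed past 2-fold. Pcolce2, Arhgdib, Dock10 and Adgre1 were called at -2.09, -1.61, -1.18 and -1.02. Without the 6 cells they were at 0.22 (-2.06 to 3.76), 0.95 (-1.62 to 6.95), 0.06 (-1.63 to 2.29) and 0.30 (-0.64 to 1.43). These intervals lay on both sides of 0, so no direction is read from them. Pcolce2, Arhgdib and Dock10 then had 6 against 2, 6 against 1 and 10 against 4 UMIs, under the minimum. The genes called only in the smaller set were Cd163, Folr2 and Hpgd, all resident identity genes. They had 14 against 16 UMIs (-1.35), 10 against 13 (-1.52) and 28 against 29 (-1.21). The 3 HFD cells left out held 0 UMIs of Cd163, 0 of Folr2 and 1 of Hpgd. Leaving them out raised the HFD level of these genes by construction, so these calls are not read as a diet difference.

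HFD_HDCA and ND differed in fewer genes. Of 144 tested, 2 were higher and 2 were lower (1.39% each), against 3.43% and 2.37% of all 379 genes. Without the 6 cells the same 4 were called among 138 (1.45% each). Of the 4, only Klf2 was called when the cell with most UMIs of each gene was left out of each library, and Klf2 and Marcksl1 without the deepest cell of each library. With at least 50 UMIs required, none was called, since none of the 4 had that many. Klf2 had 35 against 8 UMIs, a log2 ratio of 1.43 (0.37 to 2.82), and 1.63 (0.56 to 3.02) without the 6 cells. Snx5, a sorting protein of endosomes, had 18 against 3 UMIs (1.77). Marcksl1 had 7 against 16 UMIs (-1.77), and Npc2, which carries cholesterol out of lysosomes, had 13 against 19 (-1.16). Klf2 belongs to the immediate early list, whose level was highest in HFD_HDCA in Kupffer cells and in the other cells alike, and the part of digestion in it was not tested.

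Rule genes are given by diet as a description only. C1qa was at 4242, 2033 and 3088 CPM in ND, HFD and HFD_HDCA. Marco was at 376, 1099 and 382 CPM, and 16 of its 20 UMIs in HFD lay in the 3 HFD cells without Clec4f and Vsig4.

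The MHC class II list includes Ctss, which gave 45, 34 and 73 of its 190, 92 and 379 UMIs in ND, HFD and HFD_HDCA. By list, MHC class II genes in ND summed to 10203 CPM (8804 to 11761), those in HFD to 5055 CPM (4075 to 6199) and those in HFD_HDCA to 13152 CPM (11861 to 14545). Without the 6 cells they summed to 10203, 7483 (5968 to 9264) and 11151 CPM (9883 to 12537), so HFD stayed lowest and the gap narrowed. Single cells overlapped widely. The share of class II UMIs in a cell had a median of 0.948% in ND (range 0.165 to 1.99%), 0.501% in HFD (0 to 2.64%) and 0.830% in HFD_HDCA (0.152 to 4.69%). At 500 UMIs per cell the median count was 4 in ND, 2 in HFD and 4 in HFD_HDCA. Lysosomal genes were at 32703, 22802 and 31926 CPM, and at 32703, 29396 and 31541 CPM without the 6 cells. Haem and iron genes were at 16862, 17582 and 15512 CPM, with median shares per cell of 1.59%, 1.60% and 1.52%. With the 6 cells left out they were at 16862, 15945 and 14775 CPM, so HFD was no longer the highest. Resident identity genes were at 20030, 19505 and 15581 CPM, and at 20030, 20399 and 16766 CPM without the 6 cells. The interferon list was at 3329, 3846 and 2221 CPM, and its HFD level contains the 38 UMIs of Ifi27l2a. It was at 3329, 3474 and 2230 CPM without the 6 cells.

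**Figure D5:**
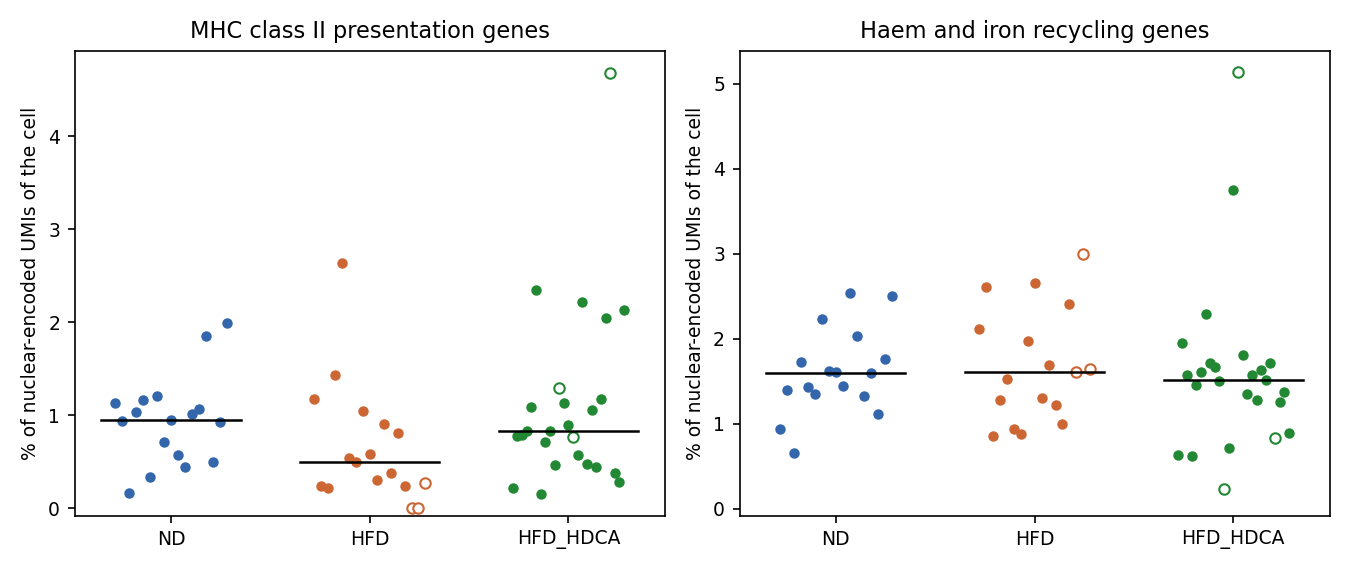
Share of the MHC class II list, Ctss included (left), and of haem and iron genes (right) in the nuclear-encoded UMIs of every Kupffer cell. Shares are in percent, by library, with lines at the median. Cells are placed from the shallowest to the deepest within a library, and open points lack Clec4f and Vsig4. The libraries overlap in both panels, and the medians of class II are 0.948%, 0.501% and 0.830%.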

How the data were processed

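Single-cell RNA was measured in 3 libraries, 1 per diet. The deposited matrices hold UMI counts per gene and barcode over 32285 features, not normalized, made with Cell Ranger, version 5.0.0 per the file headers, on genome build mm10 per the submitters' processing notes. The step by which the authors chose barcodes is not given in the sources used here. Libraries were ND, HFD and HFD_HDCA from the labels, and all barcodes of a matrix took its label.

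Barcodes were retained if they had 200 genes or more and a mitochondrial share up to 50%, and Kupffer cells were those with a UMI in at least 3 of 7 markers. Doublets were not removed and no caller was run. Counts were summed per library and cell group and divided by nuclear-encoded counts, which totalled 18622, 18200 and 28817 UMIs in the Kupffer cells of ND, HFD and HFD_HDCA. A count of 0 was read as up to 3 counts. A log2 ratio had 0.5 added to both counts, with exact conditional binomial intervals, levels with exact Poisson intervals and shares with exact Clopper-Pearson intervals, at 95%. Counts are molecules, and intervals and limits cover counting error only. The calculations were tested on simulated data.

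Genes named are the 25 with the highest ratio of Kupffer to other cells after adding 20 CPM, among those with at least 20 UMIs; in each list up to 6 genes past the size rule with the most UMIs, and any member of the identity, transcription factor, scavenger, bile acid receptor and chemokine lists; up to 10 highest and 10 lowest called genes per diet comparison; and the rule genes. Other genes are named beside them with their values, chosen after these were seen. The cells, the gene lists and the comparisons were chosen with earlier results of these data known. Of 373 listed genes, Clec7a, Cd1d2, Sting1 and Mx1 were not among the feature names. Values of 1 listed gene are not reported here. Promoters came from RefSeq on GRCm38.p6. Alternatives were other marker and gene minimums, count minimums, scalings, each library or the deepest cell left out, and Clec4f or Vsig4 required. Software was Python 3.11.15, numpy 2.4.6, scipy 1.17.1, pandas 2.3.3 and matplotlib 3.10.9.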

Additional observations from a re-analysis of the deposited data

How the results depend on the processing

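Of 132 counts and shares recomputed for the main results, 106 stayed within 1.5 times the reported count or within the interval of the reported share, and 26 moved. Of 561 recomputed ratios of single genes, 533 stayed within the reported interval, 20 left it with the same sign, and 8 changed sign. With Clec4f or Vsig4 required, 10 of 51 left it with the same sign and 6 changed sign. Genes higher in Kupffer than in other cells numbered 129 with at least 30 UMIs required and between 309 and 381 when 1 library was left out, the lowest without HFD_HDCA. Those also higher than in endothelial cells numbered 77 with 30 UMIs, and between 167 and 195 without 1 library. The HFD share of Kupffer cells was 0.950% with at least 500 genes per barcode. Genes higher in HFD than in ND numbered 3 with at least 4 markers, 3 with at least 50 UMIs, 5 without the cell with most UMIs of each gene, and 3 with Clec4f or Vsig4 required; genes lower numbered 7, 3 and 4 with 4 markers, 50 UMIs, and Clec4f or Vsig4. Genes higher in HFD_HDCA than in HFD numbered 4 with 50 UMIs and 3 with Clec4f or Vsig4. Genes lower numbered 6 with 4 markers, 4 with 50 UMIs, 9 scaled to Kupffer-higher genes, 9 with each cell weighted equally, 4 without the top cell of each gene, and 4 with Clec4f or Vsig4. Genes higher in HFD_HDCA than in ND numbered 1 with 500 genes per barcode, 0 with 50 UMIs and 6 with each cell weighted equally, and genes lower numbered 4 with 500 genes, 0 with 50 UMIs, 1 without the deepest cell of each library and 0 without the top cell of each gene. Equal weights, removal of the top or deepest cell, the Clec4f or Vsig4 requirement, and all alternatives for HFD_HDCA against ND were chosen after seeing the data. Signs turned for Hmgb2 in HFD_HDCA against HFD, to -1.92 without the deepest cell of each library and to -0.66 without its top cell. With Clec4f or Vsig4 required they turned for Lst1 (-0.37) and Adgre1 (-0.05) in HFD against ND, and for Adgre1 (0.30), Dock10 (0.06), Arhgdib (0.95) and Pcolce2 (0.22) in HFD_HDCA against HFD. In that setting the intervals of these genes all lay on both sides of 0, so no direction is read from them. Where fewer cells or genes entered, a lost call has that construction in it; beyond this the cause was not tested. With 17 to 25 cells per library, differences within the printed intervals were not detectable at this depth. No paired analysis was possible because each diet has 1 library.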
